A study of Mus musculus with 2 samples.

Results

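Cluster 13 of this thymus single-cell RNA-seq data set is a small population of thymocytes. In summed transcripts it had the highest level of all clusters of Cenpf, a kinetochore and nuclear matrix protein of dividing cells. Its members are the cells to which the authors' Seurat table gives cluster number 13 at resolution 1.5, with the library read from WT or KO in the cell name. They numbered 271 of 13683 cells, 139 in the WT library and 132 in the KO library. No expression threshold of a single gene chose them, but the clusters were built from the same transcripts that are described here, so every difference between clusters is a description with no test.

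Both groups were whole thymus of mice aged 6 weeks, 5 mice pooled per library, with 1 library per genotype and red blood cells lysed. The WT library came from Cdc42f/f mice and the KO library from Cdc42f/f CD4Cre mice. All animals therefore carried the floxed Cdc42 allele, and only the KO animals carried Cre, driven by the CD4 promoter and so active in T-lineage cells once that promoter is used. Pooling hides the spread between mice, the genotype and the library cannot be told apart, and no difference between WT and KO has a replicate check. Intervals below are exact 95% intervals that cover counting error only, over unique molecular identifiers (UMIs, 1 per captured RNA molecule) or over cells. Levels are UMIs of a gene as a share of all UMIs of the cluster and library, scaled to 1000000 (counts per 1000000, CPM).

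Thymocytes that have passed selection of the T-cell receptor beta chain divide rapidly, turn on both coreceptors, CD4 and CD8, and then leave the cycle as small double-positive (DP) cells that recombine the T-cell receptor alpha locus with the RAG proteins. In a dividing cell the genes for DNA replication and for the core histones are used in S phase, those for spindle, kinetochore and cytokinesis rise through G2 and are highest at mitosis, and their proteins are removed by the anaphase-promoting complex as the cell divides. Many promoters of the second group carry a CHR element together with CCAAT boxes, which bind the DREAM and MuvB complexes and NF-Y, while promoters of replication genes more often carry E2F sites.

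The name mitotic DP thymocytes with the highest Cenpf was checked against its markers over all clusters of the series, with both libraries pooled. Cenpf reached 1545 CPM in cluster 13 against 1129 CPM in cluster 10, the next highest. This ranking is of summed UMIs, and Cenpf was detected in a smaller share of cells in cluster 13 than in cluster 10, as given below. Hmgb2, a chromatin protein abundant in dividing cells, reached 5488 CPM in cluster 13 and 9121 in cluster 10. Birc5, the survivin subunit of the chromosomal passenger complex, reached 765 CPM in cluster 13 and 1175 in cluster 10. Hmgb2 and Birc5 therefore stood second in cluster 13, and cluster 10 was first for both. The B-type cyclins Ccnb1 and Ccnb2, the anaphase activator Cdc20, the centromeric histone Cenpa and the phosphatase Cdkn3 were, like Cenpf, highest in cluster 13. Of the DP markers, Rag2 (273 CPM) and Cd8a (1969 CPM) were also highest in cluster 13, Cd8a next to cluster 4 at 1968 CPM, while Cd8b1, Rag1 and Cd4 were higher in 5, 6 and 7 other clusters. A further limit on the word mitotic is that 79 of the 271 cells held no larger share of mitosis transcripts than cells of cluster 4 can hold, as described below. Clusters 10, 11 and 12 are the other cycling thymocyte clusters used for comparison, and cluster 4 is a DP cluster with the lowest share of mitosis transcripts of the 5.

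The WT library held 29706197 UMIs in 6115 cells and the KO library 37920214 UMIs in 7568 cells. Cells of cluster 13 had a median of 5466 UMIs in WT and 7032 in KO, between cluster 4 (3596 and 3905) and cluster 10 (12526 and 14361), and the KO median was 1.29 times the WT median. The libraries shared 17 cell barcodes, none of them in cluster 13. Mitochondrial transcripts made up a median of 3.74% of UMIs in WT and 3.69% in KO. Doublet scores ranked 0 of the 139 WT cells and 2 of the 132 KO cells of cluster 13 among the 6% of cells with the highest scores of their library. Markers of other lineages except Trdc, Cst3 and Ighm reached 10 UMIs of a gene in 5 cells. In WT these were 1 cell with 46 UMIs of the gamma-delta receptor genes Trgc1, Trgc2 and Trgc4, 1 with 1734 haemoglobin UMIs and 1 with 10 UMIs of Siglech, a marker of plasmacytoid dendritic cells. In KO they were 1 cell with 39 Siglech UMIs and 1 with 616 UMIs of the antibody light chain gene Igkc. These cells held 12652 to 26368 UMIs, among them the highest total of each library in cluster 13. Krt5, Krt8 and Psmb11 of thymic epithelium, Csf1r and Adgre1 of macrophages, Ms4a1 of B cells and Col1a1 of fibroblasts were at 0 UMIs in all 271 cells. Cst3, Ighm and Trdc were found in 228, 244 and 140 of the 271 cells and Apoe, Cd79b and Epcam in 48, 45 and 16, none of them limited to the 5 cells.

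Promoters of mitosis genes named above and of a replication gene are shown first. They come first because motif content, shared by most mitosis genes, had no part in choosing the cells. The sequences are those of RefSeq on GRCm38.p6, 135 bases before to 25 bases after the annotated start, written 5′ to 3′ on the strand of the gene. Capitals mark the letters of 3 motifs found on either strand. The CHR motif was searched as TTTGAA and in a second form as TTCGAA. The CCAAT box was searched by its own letters. The E2F motif, whose letters are in capitals in Mcm6 alone, was searched as TTTGGCGC, TTTCCCGC, TTTCGCGC and TTTGCCGC. Cenpf lies at chr1:189688062-189688221 on the minus strand, Cenpa at chr5:30666751-30666910 on the plus strand, Ccnb1 at chr13:100786462-100786621 on the minus strand, Ccnb2 at chr9:70421530-70421689 on the minus strand and Cdc20 at chr4:118437319-118437478 on the minus strand. These 5 genes were higher in cluster 13 than in cluster 10. Hmgb2 (chr8:57511708-57511867, plus strand) and Birc5 (chr11:117849102-117849261, plus strand) are shown because they were named as markers but were higher in cluster 10. Mcm6 (chr1:128359681-128359840, minus strand), a subunit of the replicative helicase, is shown as a replication gene that was low in cluster 13.
Cenpf: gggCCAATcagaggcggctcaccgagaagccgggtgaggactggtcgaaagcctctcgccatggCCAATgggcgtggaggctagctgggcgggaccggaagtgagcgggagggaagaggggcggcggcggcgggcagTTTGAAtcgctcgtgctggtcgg
Cenpa: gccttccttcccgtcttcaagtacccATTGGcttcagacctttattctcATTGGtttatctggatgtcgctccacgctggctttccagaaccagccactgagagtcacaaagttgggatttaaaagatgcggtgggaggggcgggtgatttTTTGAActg
Ccnb1: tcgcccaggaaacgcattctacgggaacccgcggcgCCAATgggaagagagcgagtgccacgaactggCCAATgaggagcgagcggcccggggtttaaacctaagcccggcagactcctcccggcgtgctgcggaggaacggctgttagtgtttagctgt
Ccnb2: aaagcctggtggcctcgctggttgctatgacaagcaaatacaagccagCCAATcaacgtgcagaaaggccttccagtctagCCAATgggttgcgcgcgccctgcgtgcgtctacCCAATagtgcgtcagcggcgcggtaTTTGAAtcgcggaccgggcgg
Cdc20: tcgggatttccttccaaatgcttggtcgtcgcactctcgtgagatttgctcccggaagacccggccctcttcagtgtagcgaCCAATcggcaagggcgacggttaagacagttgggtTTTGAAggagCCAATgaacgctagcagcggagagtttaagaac
Hmgb2: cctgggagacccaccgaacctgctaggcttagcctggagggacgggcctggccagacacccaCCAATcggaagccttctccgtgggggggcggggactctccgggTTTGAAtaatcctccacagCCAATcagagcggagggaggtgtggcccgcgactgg
Birc5: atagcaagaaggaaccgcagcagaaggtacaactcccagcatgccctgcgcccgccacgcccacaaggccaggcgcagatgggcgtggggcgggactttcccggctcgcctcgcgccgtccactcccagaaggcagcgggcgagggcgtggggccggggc
Mcm6: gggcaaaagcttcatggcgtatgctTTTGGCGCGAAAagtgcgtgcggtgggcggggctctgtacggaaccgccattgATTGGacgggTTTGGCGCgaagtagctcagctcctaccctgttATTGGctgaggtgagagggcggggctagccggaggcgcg

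In Cenpf the CHR letters start at base 3 after the annotated start and the CCAAT letters at 132 and 71 bases before it. In Ccnb2 the CHR letters start at base 5 after the start, with CCAAT at 87, 54 and 21 bases before it, and in Cdc20 they start 18 bases before it. Ccnb1 held CCAAT letters at 99 and 67 bases before the start and no CHR letters in the window, and the Birc5 window held none of the 3 motifs. In Mcm6 E2F letters stood at 110, 106 and 47 bases before the start, and those at 110 and 106 overlap on opposite strands. Over whole windows of 250 bases before to 50 after the start, 111 of the 131 mitosis genes had a RefSeq window, and 64.0% of these held CHR letters, 73.9% CCAAT letters and 51.4% both. Of 41 replication genes with a window, 24.4% held CHR letters and 41.5% E2F letters. Among all 27025 genes of the RefSeq table, 21.7% held CHR letters, 41.1% CCAAT letters, 8.61% both and 2.60% E2F letters, and among the 4284 genes with a window that were measured in cluster 13 these shares were 17.9%, 44.2%, 8.26% and 5.63%. Of 48 replication-dependent histone genes with a window, 45.8% held CHR letters, 85.4% CCAAT letters and 43.8% both. The mitosis lists and the histones thus both held CHR with CCAAT more often than genes at large, and the mitosis lists held E2F letters in 8.11%. Cluster 13 and cluster 10 draw on the same mitosis genes, so these letters describe the lists and not the difference between the clusters.

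Cenpf, Cenpa, the B-type cyclins and Cdc20 were higher in cluster 13 than in cluster 10, by less than 2-fold, while Ccna2, Aurkb, Spc24 and Top2a were lower by more than 2-fold. Cenpf had 1502 UMIs in WT and 1800 in KO, or 1488 CPM (1414 to 1565) and 1596 CPM (1523 to 1672), against 1145 and 1116 CPM in cluster 10, 219 and 204 in cluster 11, 224 and 237 in cluster 12 and 22.0 and 16.7 in cluster 4. The ratio to cluster 10 was 1.30-fold in WT and 1.43-fold in KO. Cenpf was detected in 102 of 139 WT and 95 of 132 KO cells, or 73.4% and 72.0%. In cluster 10 the shares were 98.7% and 97.8%. With cells thinned to equal depth, as described below, Cenpf was seen in 50% and 60.3% against 67.7% and 70.1%. Its higher level in cluster 13 thus holds for summed UMIs and not for the share of cells. Ccnb1 was then seen in 31.2% and 32.8% of cells against 33.6% and 36.4%. Cdc20 was seen in 48.6% and 48.1% against 44.4% and 48.1%. Cenpa, the histone H3 variant that marks the centromere, stood at 1129 and 1085 CPM against 585 and 603 CPM in cluster 10, a ratio of 1.93 in WT and 1.798 in KO. Cenpa was also among the 6 genes with the largest ratio of cluster 13 to cluster 12, at 9.65-fold and 9.67-fold. Knstrn, a kinetochore protein of the spindle, stood at 264 and 246 CPM against 157 and 167.

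Genes of cyclins and of anaphase lay on both sides of cluster 10. Ccnb1, the cyclin that activates CDK1 at entry into mitosis and is destroyed at anaphase, stood at 424 CPM in WT (385 to 466) and 464 CPM in KO (425 to 505) against 325 and 322 CPM in cluster 10. Ccnb2 stood at 729 and 774 CPM against 541 and 514 CPM. Cdc20, which directs the anaphase-promoting complex to cyclin B and securin, stood at 717 and 772 CPM against 449 and 446 CPM, 1.60 and 1.73 times the level of cluster 10. For these genes the intervals of the ratio lay above 0 on the log2 scale in both libraries. Ccna2, the cyclin A that is degraded earlier, stood at 167 and 208 CPM against 513 and 507 CPM, and was 3.05 and 2.43 times higher in cluster 10. Cdk1, the kinase itself, stood at 270.4 and 351 CPM against 625 and 636 CPM. The ubiquitin-conjugating enzyme Ube2c, which works with the anaphase-promoting complex, had no common direction: it stood at 1675 and 2041 CPM against 1960.2 and 1849.8 CPM, below cluster 10 in WT and above it in KO.

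Several kinases, kinetochore subunits and chromatin factors were lower in cluster 13 than in cluster 10. Aurkb, the kinase of the passenger complex, stood at 81.2 CPM in WT and 85.1 CPM in KO against 278 and 279 CPM. Plk1, which drives mitotic entry, stood at 84.2 and 124 CPM against 230.1 and 232 CPM. Spc24, a subunit of the NDC80 kinetochore complex, stood at 177 and 158 CPM against 653 and 596 CPM, and Top2a, which untangles DNA before the chromosomes part, at 1059 and 1267 CPM against 3324 and 3325 CPM. All 4 were lower in cluster 13 in both libraries, Plk1 in KO by less than 2-fold. Esco2, which establishes sister chromatid cohesion, had one of the 6 smallest ratios, with 7 UMIs in WT and 16 in KO (6.93 and 14.2 CPM) against 437 and 374 CPM in cluster 10. Hmgb2 was 1.78 times and Birc5 1.60 times higher in cluster 10 in WT, and 1.57 and 1.48 times in KO.

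**Figure D1:**
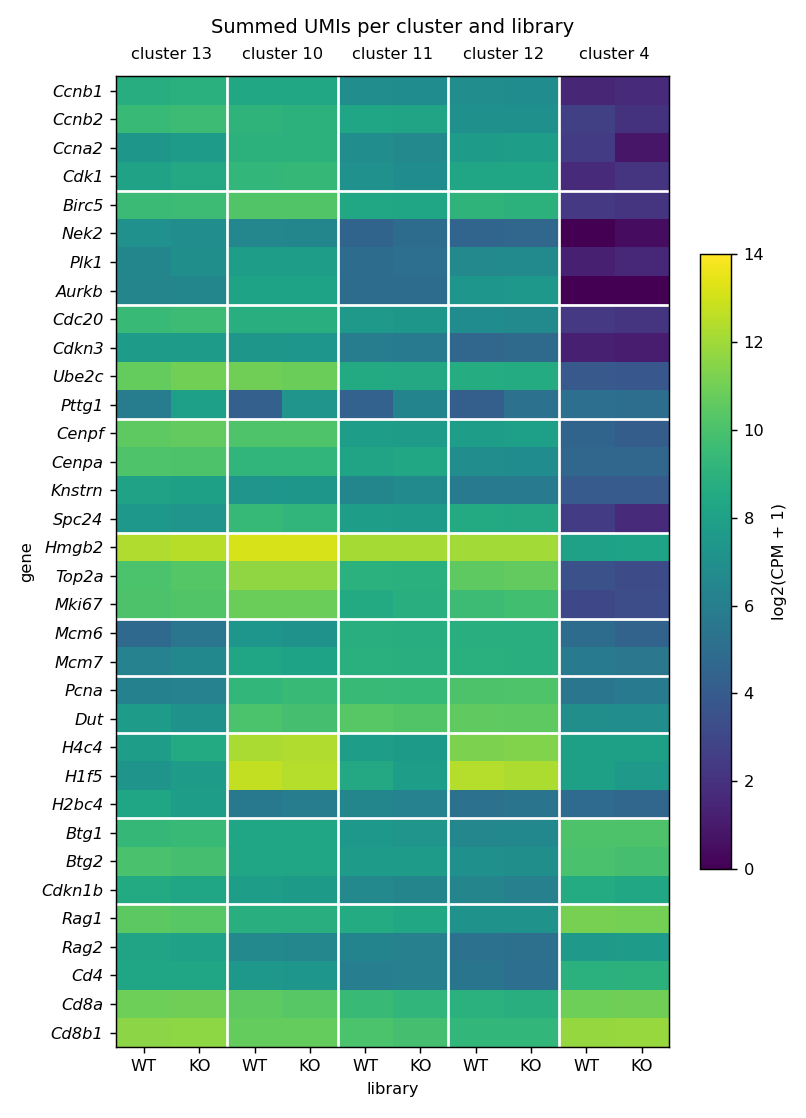
Heat map of log2(CPM + 1), from 0 in dark blue to 14 in yellow, of genes in rows grouped by list against clusters 13, 10, 11, 12 and 4, with a WT and a KO column each. Cenpf, Cenpa, Ccnb1, Ccnb2 and Cdc20 are highest in cluster 13, Hmgb2, Birc5 and Top2a in cluster 10, and in cluster 13 the replication genes and most histones are near cluster 4.

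Counts over the lists followed these examples. Of 131 mitosis genes measured in clusters 13 and 10, none was 2-fold higher in cluster 13 in both libraries and 44 were lower, with a median log2 ratio of -0.83 in WT and -0.74 in KO. The background is that 3.64% of 6867 genes were 2-fold higher in cluster 13 and 6.17% lower in both libraries, with medians of 0.10 and 0.11. The genes lower in cluster 13 included 13 of 27 of the centromere and kinetochore list, 8 of 15 kinases and passenger proteins, 6 of 13 cyclins and CDK1 regulators and 8 of 21 condensin and chromatin genes, but 4 of 27 kinesin and spindle genes, 3 of 17 checkpoint and anaphase genes and 2 of 11 cytokinesis genes. Against cluster 11 the picture was the opposite: of 126 mitosis genes 69 were 2-fold higher in cluster 13 and 6 lower, with medians of 1.23 and 1.39, where 8.7% of 6724 genes were higher and 8.34% lower. The 6 lower ones, Wee1, Pkmyt1, Mybl2, Fbxo5, Cenph and Ncapg2, include the kinases that hold CDK1 inactive before mitosis and the inhibitor of the anaphase-promoting complex. Kinesin and spindle genes (21 of 25) and cytokinesis genes (10 of 11) were the most uniform, among them Aspm, a spindle pole protein, at 224 and 247 CPM against 38.5 and 38.4 CPM in cluster 11.

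Against cluster 12, 30 of 130 mitosis genes were 2-fold higher in cluster 13 and 15 lower, where 12.9% of 6750 genes were higher and 9.81% lower. Their median log2 ratio was 0.32 in WT and 0.35 in KO, a small value whose direction depended on the scaling: with TMM factors the KO median was -0.06, and averaging the levels of single cells gave a WT median of -0.07. Against cluster 4, 93 of 102 mitosis genes were 2-fold higher in cluster 13 and none lower, where 4.34% of 6493 genes were higher and 1.72% lower. The median was 5.10 in WT and 5.30 in KO, and 5.17 and 5.399 with genes at 0 UMIs in cluster 4 set to the floor of 3 counts. The scaling moved the median log2 ratio of all genes by more than 0.1: by total UMIs it was 0.10 and 0.11 against cluster 10, 0.17 and 0.19 against cluster 11 and 0.18 and 0.21 against cluster 12, and with TMM factors -0.11 and -0.14, -0.09 and -0.10, and -0.15 and -0.20. With TMM factors the genes higher and lower in cluster 13 numbered 111 and 584 against cluster 10, where they were 250 and 424 by total UMIs, 323 and 823 in place of 585 and 561 against cluster 11, and 419 and 1053 in place of 868 and 662 against cluster 12.

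In summed UMIs, the mitosis lists together made up 5.19% of the transcripts of cluster 13 in WT and 5.49% in KO. In cluster 10 they made up 8.56% and 8.20%, in cluster 11 3.31% and 3.10%, in cluster 12 4.18% and 4.14%, and in cluster 4 0.771% and 0.727%. Cluster 13 thus stood between cluster 10 and cluster 12 in total mitosis transcripts, although it held the highest levels of Cenpf, Cenpa, Ccnb1, Ccnb2 and Cdc20.

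**Figure D2:**
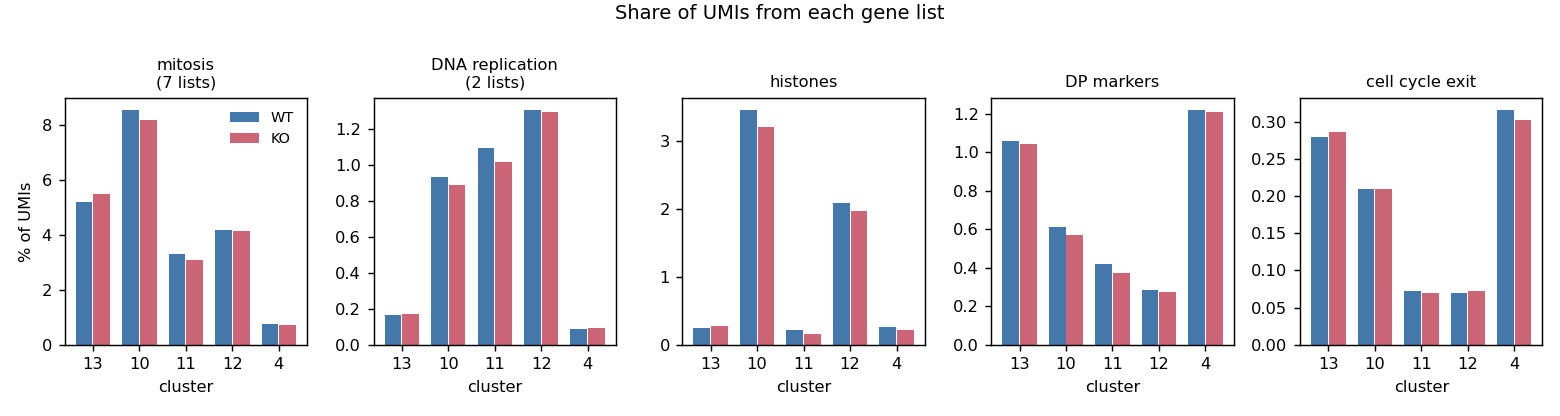
Percent of the UMIs of a cluster and library that came from the mitosis lists, the replication lists, the replication-dependent histones, the DP markers and the cell cycle exit list, with a WT and a KO bar for each cluster and axes that start at 0 and differ between panels. Cluster 13 holds 5.19% and 5.49% mitosis transcripts but 0.163% and 0.170% replication transcripts.

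Genes of DNA replication were far lower in cluster 13 than in clusters 10, 11 and 12, and by their medians somewhat above cluster 4. Mcm6 and Mcm7, subunits of the helicase that unwinds DNA ahead of the replication fork, stood at 26.7 and 72.3 CPM in WT and at 43.5 and 90.5 CPM in KO. In cluster 12 Mcm6 stood at 461 and 437 CPM and in cluster 4 at 30.0 and 21.3 CPM. Pcna, the sliding clamp of the polymerases, had 71 UMIs in WT and 82 in KO, or 70.3 and 72.7 CPM, against 625 and 679 CPM in cluster 10, 1077 and 1115 in cluster 12 and 44.4 and 52.8 in cluster 4. It was 8.83 and 9.29 times higher in cluster 10. Cdc6, which loads the helicase on origins, had 2 UMIs in WT and 1 in KO, and the G1/S cyclin Ccne1 had 1 UMI in each library, among the 6 smallest ratios to clusters 11 and 12. Of the 48 replication genes measured against cluster 10, 45 were 2-fold lower in cluster 13 and none higher, with medians of -2.44 and -2.26. Against clusters 11 and 12, 47 of 50 and 47 of 49 were lower, with medians of -3.04 and -2.87 and of -3.26 and -3.17. Against cluster 4, 7 of 23 were higher and none lower, with medians of 0.67 and 0.58. Of all genes, 6.17% were lower against cluster 10, 8.34% against cluster 11 and 9.81% against cluster 12. Against cluster 4, 4.34% of all genes were higher and 1.72% lower.

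Replication-dependent histones, which are made in S phase from mRNAs that mostly lack a poly(A) tail and so are caught only in part by an oligo-dT method, made up 0.246% of UMIs in WT and 0.279% in KO. Their share was 3.45% and 3.196% in cluster 10, 2.08% and 1.96% in cluster 12, 0.215% and 0.157% in cluster 11 and 0.264% and 0.217% in cluster 4. H1f5, a linker histone, stood at 153 CPM in WT and 212 CPM in KO against 6703 and 5535 CPM in cluster 10, and H4c4 at 224 and 380.5 CPM against 4813 and 5080.4 CPM. Of 54 histone genes measured, 50 were 2-fold lower than in cluster 10 and only H2bc4 was higher, where 6.17% of all genes were lower and 3.64% higher. H2bc4 stood at 297 CPM (264 to 333) in WT and 227 CPM (200.1 to 257) in KO, against 49.0 and 57.7 CPM in cluster 10, 85.0 and 73.4 in cluster 11, 37.4 and 40.6 in cluster 12 and 28.7 and 23.3 in cluster 4. It was found in 86 WT and 76 KO cells of cluster 13. Near-identical copies of histone genes can share reads, so the value of a single histone gene is uncertain.

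Genes linked to withdrawal from the cycle lay near the level of cluster 4. Btg2, an antiproliferative factor, stood at 1023 CPM in WT (962 to 1088) and 926 CPM in KO (871 to 984), against 301 and 308 CPM in cluster 10, 129 and 124 in cluster 12 and 999 and 949 in cluster 4. Its log2 ratio to cluster 4 was 0.03 (-0.07 to 0.14) in WT and -0.04 (-0.14 to 0.07) in KO. Its relative Btg1 stood at 651 and 709 CPM, between cluster 10 (311 and 302) and cluster 4 (1104 and 1078). Cdkn1b, the CDK inhibitor p27, stood at 371 and 303 CPM, against 229.8 and 196 CPM in cluster 10, 81.2 and 68.2 in cluster 12 and 389.8 and 329 in cluster 4. Of 13 measured genes of the exit list, Btg1, Btg2 and Tob1 were 2-fold higher than in cluster 10, and Cdkn2c, an INK4 inhibitor, and Rb1 were lower. Against cluster 12, 8 of 12 were higher and none lower, and against cluster 4 none of 12 passed 2-fold in either direction. Of all genes, 3.64% were higher and 6.17% lower than in cluster 10, 12.9% and 9.81% than in cluster 12, and 4.34% and 1.72% than in cluster 4.

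Other genes with the largest ratios to cluster 10 also lay near cluster 4. Mxd4, a MAX partner that opposes MYC, stood at 413 CPM in WT and 381 CPM in KO against 70.0 and 74.4 CPM in cluster 10, 5.90 and 5.12 times as much, and at 421 and 422 CPM in cluster 4. Pdcd4, an inhibitor of translation initiation, stood at 582 and 667 CPM against 134 and 146 CPM, and at 536 and 585 CPM in cluster 4. Hbp1, a repressor of cell cycle genes, stood at 83.2 and 78.9 CPM against 18.5 and 17.0 CPM, and at 102 and 112 CPM in cluster 4. The other large ratios were those of H2bc4 and of the uncharacterised genes Gm44175 and 2810013P06Rik. For Mxd4, Pdcd4 and Hbp1 cluster 13 thus lay near cluster 4 and far from the other cycling clusters. Against cluster 12, Ddit4, an inhibitor of mTORC1 (106 and 97.6 CPM against 8.16 and 6.2001), and Slc7a11, the cystine transporter (104 and 92.2 CPM against 6.12 and 4.82), had the largest ratios with Mxd4.

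Against cluster 11 the genes with the largest ratios were, beside Cenpf, Aspm, Ddit4 and Emp1, the cyclin G2 gene Ccng2 and Tnfaip8l1. Ccng2 stood at 142 CPM in WT and 153 CPM in KO against 20.6 CPM in both libraries of cluster 11, and it was at 136 and 133 CPM in cluster 10 and 92.7 and 93.5 in cluster 4. Tnfaip8l1 stood at 80.2 and 106 CPM against 11.9 and 9.45 CPM in cluster 11, 49.0 and 56.3 in cluster 10 and 17.5 and 19.4 in cluster 4, so that cluster 13 was the highest of the 5. Against cluster 4 the genes with the largest ratios were all of the spindle, the kinetochore or the cohesin guard: Kif4, Aspm, Dlgap5, Sgo2a, Hmmr and Tpx2. Dlgap5, a spindle assembly factor, stood at 253 and 259 CPM against 0.448 and 0.388 CPM in cluster 4, and Tpx2, the activator of Aurora A, at 528 and 426 CPM against 1.79 and 1.94 CPM. In the other direction, Insl5, an insulin-like peptide, stood at 11.9 and 11.5 CPM in cluster 13 against 123 and 61.3 CPM in cluster 4, and BC065403 at 11.9 and 9.76 CPM against 77.1 and 59.0 CPM. In all, 112 of 6493 genes (1.72%) were 2-fold lower in cluster 13 than in cluster 4 in both libraries. Insl5 had only 12 and 13 UMIs in cluster 13.

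Of the list of growth and nutrient uptake, most measured genes were lower in cluster 13 than in clusters 11 and 12. Npm1, a nucleolar chaperone of ribosome assembly, stood at 682 CPM in WT and 600.4 CPM in KO against 2652 and 2636 CPM in cluster 11 and 775 and 692 in cluster 4. Of 11 measured genes of the growth list, 7 were 2-fold lower than in cluster 11 and 2 higher, and 7 lower and 1 higher than in cluster 12. The same 7 genes were lower in both comparisons: the nucleolar genes Ncl, Npm1, Nop56, Fbl and Nolc1, the amino acid transporter gene Slc7a5 and Odc1 of polyamine synthesis. The genes higher than in cluster 11 were the costimulatory receptor genes Cd27 and Cd28, of which Cd27 was also 2-fold higher than in cluster 12. Of all genes, 8.34% were lower and 8.7% higher than in cluster 11, and 9.81% lower and 12.9% higher than in cluster 12. Ribosomal protein transcripts made up 14.04% of UMIs in WT and 12.9% in KO, against 24.8% and 24.6% in cluster 11 and 13.8% and 14.1% in cluster 10. Cluster 10 was about as low as cluster 13 in these transcripts, so they separate both from cluster 11. In cluster 4 their share was 17.3% and 16.9%, and within cluster 13 it was not uniform, as given below.

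Rag1, Cd4 and Cd8b1 lay between cluster 10 and cluster 4, Rag2 and Dntt lay above cluster 4 in both libraries, and Cd8a lay next to it, at 1912 and 2020.3 CPM against 1933 and 1999 CPM. Rag1 stood at 1438 CPM in WT and 1337 CPM in KO, against 461 and 458 CPM in cluster 10, 139 CPM in both libraries of cluster 12 and 2201 and 2126 CPM in cluster 4. Rag2 stood at 291 and 256 CPM, above cluster 4 at 189.9 and 215 CPM. Rag1 and Rag2, the recombinase subunits, were the 2 of 9 DP markers that were 2-fold higher than in cluster 10. Cd4 stood at 300.1 and 314 CPM against 176 and 165 CPM in cluster 10, 42.1 and 33.8 in cluster 12 and 489 and 509 in cluster 4, and Cd8b1 at 2977 and 3099 CPM against 1684 and 1659 CPM, 618 and 627 CPM and 3496 and 3604 CPM. Against clusters 11 and 12, 8 of 9 DP markers were 2-fold higher in cluster 13, and against cluster 4 none passed 2-fold. Of all genes, 3.64% were higher than in cluster 10, 8.7% than in cluster 11, 12.9% than in cluster 12 and 4.34% than in cluster 4. The 9 markers summed to 1.06% of UMIs in WT and 1.04% in KO, against 0.609% and 0.570% in cluster 10, 0.285% and 0.276% in cluster 12 and 1.22% and 1.21% in cluster 4. T-cell receptor and CD3 genes summed to 2.05% and 2.02%, against 1.43% and 1.44% in cluster 10 and 2.10% and 2.03% in cluster 4.

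To compare single cells at equal depth, each cell was thinned to 1500 UMIs, which left out 1 cell of cluster 13 in each library. Both a Cd4 and a Cd8 UMI were then seen in 37.7% of 138 WT cells (29.6 to 46.3) and 35.9% of 131 KO cells (27.7 to 44.7), and Cd8 alone in 60.9% and 63.4%. Before thinning, 77.0% and 86.4% held both. The thinned share with both was 25.4% and 18.2% in cluster 10, 10.2% and 11.7% in cluster 11, 6.52% and 3.76% in cluster 12 and 51.4% and 52.2% in cluster 4. Cluster 15, the cluster highest in Cd74, the MHC class II invariant chain of antigen-presenting cells, serves as a comparison. There it was 10.3% of 29 WT cells (2.19 to 27.4) and 7.04% of 71 KO cells (2.33 to 15.7), with unthinned medians of 1202 and 4284 UMIs. Thinning left out 34 WT and 16 KO cells of cluster 15. Cd8 alone was seen in 17.2% and 16.9% of the rest. Whether these UMIs are background or RNA of the cells themselves was not tested. Cluster 13 lay above cluster 15 and between clusters 10 and 4, while clusters 11 and 12 lay near cluster 15. No cell held a Cd4 UMI without a Cd8 UMI after thinning, a limit on this detected pattern of up to 2.64% in WT and 2.78% in KO by the exact binomial method, which says nothing of cells whose Cd4 or Cd8 RNA was missed at this depth.

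Few genes were 2-fold higher in cluster 13 than in each of the 4 comparison clusters. Of 5803 genes measured in every comparison, 10 (0.172%) were 2-fold higher than in each of clusters 10, 11, 12 and 4 in both libraries: H2bc4, Vim, Emp1, Cep89, Ifi27l2a, Tuba1a, Dap, Ptms, Lgals1 and Tyrobp. Tyrobp, a signalling adaptor of innate cells, had 70 UMIs in WT and 110 in KO, each from 1 cell, and is set aside. Vim, the intermediate filament vimentin, stood at 432 CPM in WT (392 to 474) and 637 CPM in KO (591 to 685) against 80.7 and 172 CPM in cluster 10 and 56.9 and 59.8 in cluster 4, and was detected in 105 and 111 cells. Tuba1a, an alpha-tubulin, stood at 609 and 647 CPM against 216 and 219 CPM in cluster 10 and 104 and 114 in cluster 4. The other alpha-tubulin Tuba1b went the opposite way, 4.48 and 3.25 times higher in cluster 10. Lgals1, the lectin galectin-1, stood at 1899.9 and 2116 CPM against 792 and 961 CPM in cluster 10 and 738 and 807 in cluster 4. Ptms, parathymosin, stood at 1181 and 1293 CPM against 517 and 577 CPM and 488 and 570.4 CPM. Cep89, a protein of the centriole appendages, stood at 97.1 and 86.9 CPM against 21.3 and 27.6 CPM in cluster 10 and 3.58 and 3.49 in cluster 4, with 98 UMIs in each library. Emp1, a small membrane protein, stood at 76.3 and 75.4 CPM against 15.1 and 20.5 CPM and 7.17 and 3.10 CPM. The 10 genes hold no member of the mitosis lists. They were called by total UMIs and were not called again with TMM factors, which lowered the median ratios to clusters 10, 11 and 12. Several lay near the log2 bound of 1 in KO. Against cluster 10 the KO log2 ratio was 1.14 for Lgals1, 1.16 for Ptms and 1.17 for Dap. Against cluster 11 that of Ifi27l2a was 1.05. Actb, which encodes beta-actin, reached 9741 and 9252 CPM against 6929 and 6721 CPM in cluster 10 and 6931 and 6587 in cluster 4.

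The cells of cluster 13 were not alike. The share of a cell's UMIs that came from the cyclin, kinase, checkpoint and centromere lists ran from 0.0592% to 3.94% in WT, with a median of 1.07%, and from 0.0417% to 4.12% in KO, with a median of 1.10%. In cluster 10 the lowest cell held 1.03% in WT and 0.995% in KO, and in cluster 4 the highest cell held 0.357%. In cluster 13, 70 of 139 WT cells and 67 of 132 KO cells held 1% or more. At or under the highest share of cluster 4 were 38 WT cells (27.3%, 20.1 to 35.5) and 41 KO cells (31.1%, 23.3 to 39.7). The cluster thus spanned the range from cells like those of cluster 4 to cells like those of cluster 10 in this measure.

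**Figure D3:**
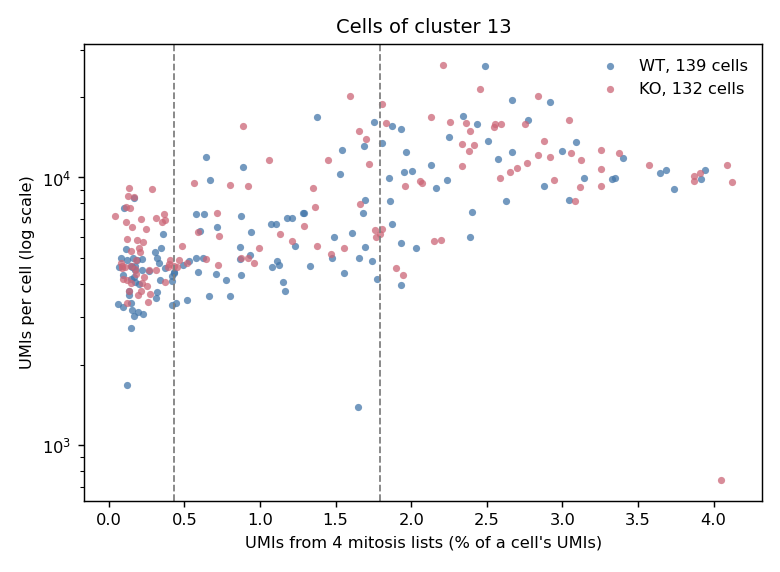
Each point is a cell of cluster 13, with the percent of its UMIs from the cyclin, kinase, checkpoint and centromere lists on the x axis, its total UMIs on the log y axis and the library by colour (139 WT and 132 KO cells). The dashed lines mark 0.429% and 1.79%, the bounds used for the sets described next, and cells with larger shares mostly have more UMIs.

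Ordering the cells by this share and dividing them at 0.429% and 1.79% gave 3 sets of near-equal size, a division by range and not by type, with 25 and 17 cells within 0.1 percentage point of the bounds. The lowest set held 43 WT and 48 KO cells, the middle 55 and 35, and the highest 41 and 49. Median UMIs per cell were 4321 and 4765 in the lowest set, 5130 and 6166 in the middle and 10533 and 11290 in the highest, so that the middle set had 0.487 and 0.546 times the RNA count of the highest. Genes of the lists that were used differ between the sets by construction, and nothing is read from the size of their steps. Cenpa stood at 176 and 179.6 CPM in the lowest set, at 1101 and 1008 CPM in the middle and at 1530.5 and 1521 CPM in the highest, and Ccnb2 at 90.4 and 99.3, 733 and 873, and 981 and 1027 CPM. Cdk1 stood at 5.32 and 3.82, 62.8 and 94.6, and 531 and 624 CPM, and Ube2c at 79.8 and 61.1, 462 and 768, and 3214 and 3509 CPM. Ccnb1 had 0 UMIs in the lowest set in both libraries, under a floor of 3 counts or 15.96 CPM in WT and 11.5 CPM in KO.

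Genes outside those lists also differed between the sets. Top2a stood at 26.6 and 42.0 CPM in the lowest set, 291 and 535 CPM in the middle and 2042 and 2151 CPM in the highest, and Hmgb2 at 686 and 753, 4748 and 5672, and 7179 and 8119 CPM. Tuba1a stood at 197 and 237, 545 and 662, and 821 CPM in both libraries, and Cep89 at 10.6 and 11.5, 74.2 and 65.5, and 149 and 130.3 CPM. These genes were higher in the cells with more mitosis transcripts. H2bc4 ran the other way, at 846 and 653 CPM in the lowest set, 285 and 200.1 CPM in the middle and 87.0 and 50.8 CPM in the highest. Ddit4 likewise stood at 213 and 179.6, 111 and 135, and 59.4 and 44.0 CPM, and Rag1 at 1793 and 1830.1, 1607 and 1222, and 1172 and 1173 CPM. Ptms (1106 to 1346 CPM) had intervals that overlapped between all sets in each library, and Btg2 (795 to 1204 CPM) had no common order over the sets. The lowest set still differed from cluster 4 in H2bc4 (28.7 and 23.3 CPM there), in Lgals1 (2537 and 2182 CPM against 738 and 807) and in Vim (223 and 363 CPM against 56.9 and 59.8), where the clustering used the same transcripts. Replication transcripts were low in all 3 sets, at 0.127% and 0.151%, 0.156% and 0.143%, and 0.182% and 0.191% of UMIs. Mitochondrial transcripts had a median of 4.55% and 4.50% of UMIs in the lowest set and 2.74% and 2.97% in the highest, and their part in these differences, like that of the UMI total, was not tested.

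**Figure D4:**
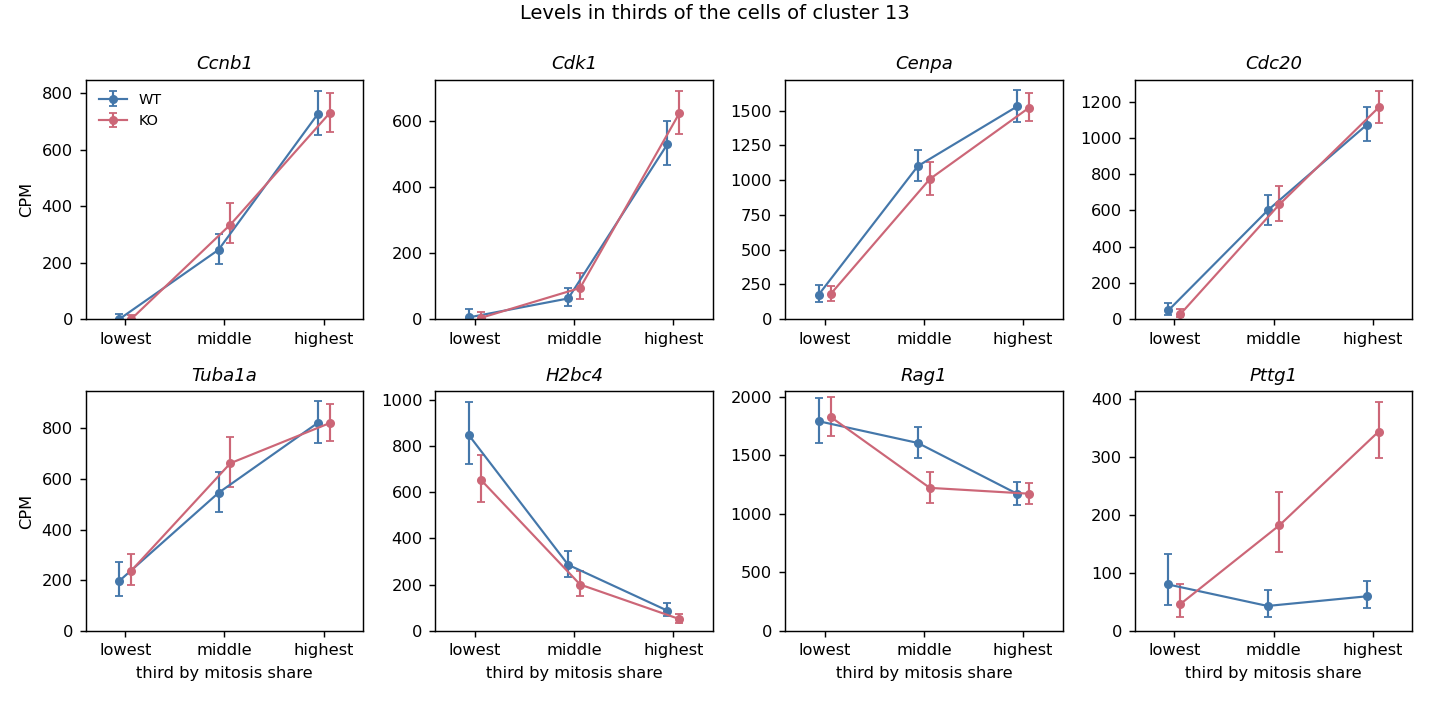
CPM of 8 genes in the lowest, middle and highest set of cluster 13 by share of mitosis transcripts, as points joined by lines for WT and KO with exact 95% Poisson intervals. Ccnb1, Cdk1, Cenpa, Cdc20 and Pttg1 belong to the lists that ordered the cells, so their differences between sets arise at least partly by construction. Of these, Pttg1 is higher from set to set in KO alone. Outside those lists, Tuba1a is higher and H2bc4 lower from set to set.

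The KO library was set beside the WT library to ask whether loss of Cdc42, a small GTPase of actin and cell polarity, goes with a different state of these dividing cells. Cdc42 itself had 508 UMIs in WT and 493 in KO, or 503 CPM (460.4 to 549) and 437 CPM (399 to 478), a log2 ratio of -0.20 (-0.38 to -0.02). The deletion removes 1 exon of the gene and the method reads 3′ ends, so the tag lies outside the deleted part and does not check the genotype. Similar ratios stood in cluster 10 (-0.20), cluster 11 (-0.25), cluster 12 (-0.29) and cluster 4 (-0.14). Cluster 13 made up 2.27% of cells in WT (1.91 to 2.68) and 1.74% in KO (1.46 to 2.07), and 20.3% (17.3 to 23.5) and 17.9% (15.2 to 20.9) of clusters 10 to 13. Its share of the cycling clusters thus had overlapping intervals. The lowest, middle and highest sets held 30.9%, 39.6% and 29.5% of its WT cells and 36.4%, 26.5% and 37.1% of its KO cells, all with overlapping intervals.

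Of 5343 genes with at least 50 UMIs in cluster 13 over both libraries, 259 were 1.5-fold higher in KO (4.85%) and 117 lower (2.19%), with a median log2 ratio of 0.04. The split rests on the scaling: with TMM factors 192 were higher and 187 lower, and with DESeq2 size factors 194 and 185. Without the 5 cells of other lineages the counts were 263 and 110. The mitosis genes differed little. Of 118 measured, 4 were 1.5-fold higher in KO and none lower, with a median of 0.11 that became 0.03 with TMM factors. Cenpf had a log2 ratio of 0.10, Birc5 one of 0.08 (-0.06 to 0.23) and Hmgb2 one of 0.18 (0.13 to 0.23). The 4 genes were Pttg1, Anln (0.85, 29 and 59 UMIs), Ccnf (0.75, 36 and 68 UMIs) and Melk (0.65, 26 and 46 UMIs, with an interval that includes 0). Of 26 replication genes Mcm6 alone was higher (0.69, 27 and 49 UMIs, interval -0.01 to 1.43), and none of 9 DP markers and none of 7 T-cell receptor and CD3 genes passed 1.5-fold. Read against the background of 4.85% and 2.19%, the shares of these lists that passed 1.5-fold lay near or below those of all genes.

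Single genes stood out from this background. Ctsl, the lysosomal protease cathepsin L, had 2897 UMIs in WT and 267 in KO, or 2869.7 and 237 CPM, a log2 ratio of -3.60 (-3.79 to -3.42), and was detected in 137 of 139 WT and 99 of 132 KO cells. It was lower in KO in each comparison cluster as well, by log2 ratios of -3.69 in cluster 10, -3.34 in cluster 11, -2.90 in cluster 12 and -2.83 in cluster 4. Gm45315, an uncharacterised gene, had 14 UMIs in WT and 373 in KO, a log2 ratio of 4.53 (3.81 to 5.46), with ratios of 4.71 to 5.61 in the other clusters. Both differences were therefore shared by the clusters.

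Pttg1 differed between the clusters. This gene encodes securin, the inhibitor of separase that the anaphase-promoting complex destroys to let sister chromatids part. It had 58 UMIs in 43 WT cells and 265 UMIs in 78 KO cells of cluster 13, or 57.5 and 235 CPM, a log2 ratio of 2.02 (1.62 to 2.47), 4.06-fold. In cluster 10 it stood at 18.5 and 158 CPM (3.08, 2.71 to 3.51), in cluster 11 at 19.9 and 77.9 CPM (1.96, 1.55 to 2.402), in cluster 12 at 17.7 and 35.8 CPM (1.01, 0.56 to 1.501), and in cluster 4 at 33.6 and 32.6 CPM (-0.04, -0.51 to 0.43). The ratio was near 0 in cluster 4 and above 1 in each cycling cluster, and the counting interval of cluster 13 overlaps that of cluster 11 but not those of clusters 10, 12 and 4. These differences between clusters were not tested, with 1 library per genotype. Within cluster 13, Pttg1 stood in WT at 79.8 CPM in the lowest set, 42.8 in the middle and 59.4 in the highest, and in KO at 45.8, 182 and 343 CPM. In KO it was higher from set to set, and in WT it was not. Pttg1 belongs to the checkpoint and anaphase list, which was used to order the cells. Its steps between the sets are therefore partly by construction, and nothing is read from them. Over the alternatives tried the log2 ratio in cluster 13 ran from 1.84 to 2.04. The library, the mice pooled in it and the genotype cannot be told apart.

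Most measured genes of the interferon response passed 1.5-fold towards KO. Ifi27l2a stood at 60.4 CPM in WT and 207 CPM in KO (61 and 233 UMIs), a log2 ratio of 1.77 (1.36 to 2.21). Of 8 measured genes of the list 5 were 1.5-fold higher in KO and none lower, where 4.85% of all genes were higher. Among them were Ifi27l2a, Ifi203 (1.36, 22 and 64 UMIs), Ifi209 (1.12, 15 and 37 UMIs) and Irf1 (0.70, 19 and 35 UMIs, with an interval that includes 0). The list had a median of 0.88 and summed to 0.0335% of UMIs in WT and 0.0645% in KO. The sum was also higher in KO in cluster 10 (0.94), cluster 11 (0.54), cluster 12 (0.34) and cluster 4 (0.51), against 0.94 (0.76 to 1.14) in cluster 13. Epsti1, an interferon-inducible gene, stood at 32.7 and 188 CPM, a log2 ratio of 2.51 (1.99 to 3.10). Klf2, a transcription factor of quiescent and emigrating T cells, had 17 UMIs in 15 WT cells and 86 UMIs in 42 KO cells, a log2 ratio of 2.15 (1.42 to 3.02). Epsti1 and Klf2 were also higher in KO in clusters 10, 11, 12 and 4, so neither difference was limited to cluster 13. Epsti1 stood at 23.5 and 99.8 CPM in cluster 10 and at 96.3 and 341 CPM in cluster 4. Klf2 stood at 11.3 and 63.2 CPM in cluster 10 and at 18.4 and 46.95 CPM in cluster 4. In cluster 12 Klf2 stood at 12.2 and 17.2 CPM, with intervals that overlap.

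Other large ratios came from single cells. Igkc had 1 UMI in WT and 618 in KO, of which 616 were in 1 cell, and Ighg2b 197 UMIs in that cell and none in WT. The haemoglobin genes Hbb-bs (986 UMIs), Hba-a1 (308), Hba-a2 (241) and Hbb-bt (201) came from 1 WT cell but for 2 UMIs, and were at 0 in KO. Cox6a2 had 35 UMIs in 1 WT cell and 109 in 2 KO cells, nearly all in the cells with Siglech. Without the 5 cells of other lineages Igkc had a log2 ratio of 0.55. The lower values in KO of Gm42047 (69 and 37 UMIs, -1.05), Dph3 (69 and 42 UMIs, -0.87) and Sfswap (69 and 43 UMIs, -0.84) had intervals below 0 in cluster 13, but Dph3 was 0.38 after thinning to 1500 UMIs per cell, and Dph3 and Sfswap had intervals that include 0 in clusters 10, 11, 12 and 4.

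**Figure D5:**
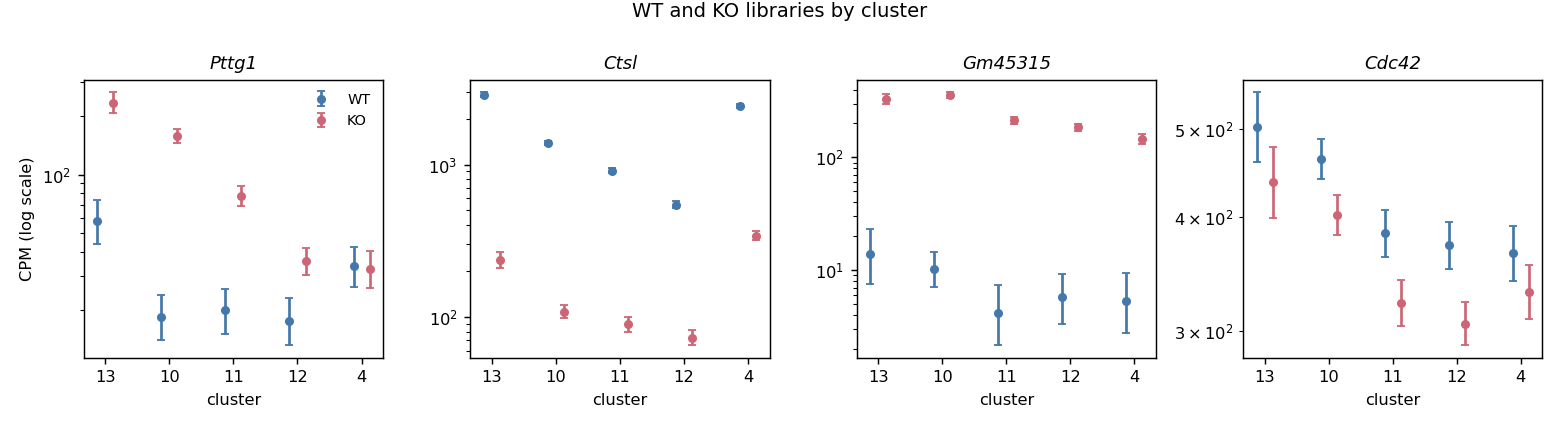
CPM on log axes that differ between panels of Pttg1, Ctsl, Gm45315 and Cdc42 in clusters 13, 10, 11, 12 and 4, as a WT and a KO point with exact 95% Poisson intervals. Ctsl is lower and Gm45315 higher in KO in all 5 clusters, while Pttg1 is higher in KO in the 4 cycling clusters and level in cluster 4.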

How the data were processed

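Single-cell RNA-seq libraries (10x Genomics, 3′ kit) were made from pooled thymi, 1 library per genotype, and read through Cell Ranger 3.0.2 with STAR and Seurat on mm10 per the submitters' processing notes. The deposited matrix holds counts of UMIs per gene and cell, not normalized, for 20282 genes, and the authors kept cells with 200 to 6000 genes and at most 50000 reads. The deposited percent of mitochondrial reads reads 0 for each cell, and it was recomputed from 34 mitochondrial genes. Cell names give Cdc45 where the labels give Cdc42, and WT or KO in the name set the library. No column of another series was present (0).

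Members and gene lists were chosen with earlier results of these data known. For each cluster of each library the UMIs of a gene were added up, scaled to CPM, and compared as log2 ratios after adding 0.5. KO over WT was called at 1.5-fold among genes with 50 UMIs or more over both libraries of cluster 13. A cluster contrast was called at 2-fold in the same direction in both libraries, among genes with 50 UMIs or more in the 2 clusters of each library. No p-value was computed, since cells are not replicates. Intervals are exact 95% Poisson, conditional binomial or Clopper-Pearson. Named genes were Cenpf, Hmgb2, Birc5 and Cdc42, list members with high levels or large ratios, the 6 largest and 6 smallest ratios of each cluster contrast and the 8 largest and 8 smallest KO over WT ratios, with 100 UMIs or more. Genes 2-fold higher than in all 4 clusters, the sets by mitosis share and the other-lineage cells were chosen after their values were seen.

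Coreceptor shares came from cells thinned to 1500 UMIs. Doublets were scored per library with Scrublet in Scanpy 1.11.5, and the highest 6% formed an alternative and were otherwise kept. Scaling alternatives used TMM factors of edgeR 4.0.16 and size factors of DESeq2 1.42.0 in R 4.3.3, with no count test. Scripts ran in Python 3.11.15 with numpy 2.4.6, pandas 2.3.3 and scipy 1.17.1 and were tested on simulated data. Gene positions came from GENCODE vM21, which matched 19797 gene names, and promoter windows from RefSeq on GRCm38.p6. Some items and the results that need them are not reported here.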

Additional observations from a re-analysis of the deposited data

Results flagged for a closer look

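The linker histone gene H1f5 had a log2 ratio of KO over WT of 0.47 (0.18 to 0.78) in cluster 13, from 154 UMIs in WT and 239 in KO, and of -0.28 (-0.30 to -0.25) in cluster 10, -0.70 (-0.84 to -0.57) in cluster 11, -0.17 (-0.20 to -0.14) in cluster 12 and -0.41 (-0.59 to -0.24) in cluster 4. The summed replication-dependent histones had a ratio of 0.18 (0.11 to 0.26) in cluster 13, against -0.45 (-0.50 to -0.40) in cluster 11 and -0.28 (-0.34 to -0.23) in cluster 4. These values stood out because the ratios lay on opposite sides of 0 with intervals more than 0.1 from it. They came from a comparison of 58 named genes and 26 lists between cluster 13 and each of 4 other clusters. H1f5 is itself a member of the histone list. The histone sums of clusters 10 (-0.11, -0.12 to -0.10) and 12 (-0.086, -0.10 to -0.071) also had intervals below 0, nearer to it.

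A few cells held an outsized part of the KO histone UMIs of cluster 13. Histones took 1% or more of the UMIs of 1 WT cell and 4 KO cells, with 42 of 2482 and 526 of 3145 histone UMIs. Without these cells, left out in both libraries after the data were seen, the ratio was -0.0068 for the summed histones and 0.058 for H1f5. The cells were chosen by their histone share and most were KO cells. Leaving them out therefore lowers the ratio by construction, and no account of the difference is drawn from it. By set, the histone share was 0.335% in WT and 0.309% in KO in the lowest, 0.218% and 0.190% in the middle and 0.231% and 0.307% in the highest, so that KO was above WT in the highest set alone. The difference between clusters was not tested, since each genotype had 1 library, and the KO cells of cluster 13 had 1.29 times the median UMIs of the WT cells, whose part in it was not tested.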

How the results depend on the processing

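No paired analysis was possible because each condition has 1 library, and no library could be left out. Of the 632 values recomputed under alternatives, 309 for whole comparisons and 238 for single genes kept their direction and size. For KO over WT, TMM and DESeq2 factors gave 187 and 185 genes lower and mitosis medians of 0.031 and 0.035. Thinned cells gave 72 higher and 57 lower, a minimum of 20 UMIs 709 and 373, a minimum of 100 UMIs 74 and 23, and a log2 threshold of 1 gave 37 and 13. Against cluster 10, TMM and DESeq2 factors gave 111 and 139 genes higher and KO mitosis medians of -0.997 and -0.93, the mean over cells gave mitosis medians of -1.23 and -1.04, thinning 59 higher and 159 lower with medians of -1.20 and -1.08, minimums of 20 and 100 UMIs 447 and 166 higher, and a threshold of 1.5-fold gave 873 and 794. Against cluster 11, 386 genes were higher without ribosomal and mitochondrial genes, 323 with TMM and 372 with DESeq2 factors. The mean over cells gave WT medians of 0.89 for mitosis and -3.33 for replication, thinning 98 higher and 110 lower with mitosis medians of 0.77 and 1.03, and a threshold of 1.5-fold gave 1423 and 1015. Against cluster 12 the KO mitosis median was 0.16 without ribosomal and mitochondrial genes, -0.064 with TMM, 0.021 with DESeq2 and 0.22 without the 5% of cells with most UMIs, and with the mean over cells it was -0.075 in WT and 0.037 in KO. There TMM gave 419 higher and 1053 lower, DESeq2 465 higher, thinning 145 and 151, a minimum of 100 UMIs 576 higher, and a threshold of 1.5-fold gave 1762 and 1131. Against cluster 4, thinning gave 109 and 56 genes, mitosis medians of 3.201 and 3.08 and a KO replication median of 0.11, a minimum of 20 UMIs 424 and 207, a minimum of 100 UMIs 65 lower, and a threshold of 1.5-fold gave 562 and 492. As a share of clusters 10 to 13, cluster 13 was 20.3% and 17.9%. Among single genes the KO over WT ratio changed sign for Dph3 when thinned (0.38), Cox6a2 without the 5% of cells with most UMIs (-4.73) and Ighg2b without the 5 cells of other lineages (-0.19), an alternative chosen after seeing the data. Thinned counts are lower because fewer UMIs remain. For the other changes the cause was not tested. With 139 and 132 cells, genes under 50 UMIs were not compared.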
